A study of Mus musculus with 20 samples.

Results

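Wide H3K27me3 domains of WT cells were taken as merged broad peaks of the 2 WT H3K27me3 libraries that held a peak of each library and spanned 5000 bp or more, with the mitochondrial chromosome left out. Of 10606 merged regions with a peak of both WT libraries, 366 met this rule. They made up 3.45% of those regions and 11.2% of their sequence, and covered 2.44 Mb, or 0.0896% of the genome. Their median width was 5858 bp, with a range from 5001 to 86199 bp, and they lay on 20 chromosomes. The rule used peak width and presence in WT, so the WT coverage of the domains is given below as a description only.

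The libraries were made from mouse Nkx2.1-lineage cells, sorted by a fluorescent reporter from neocortices of pups at postnatal day 7 or 8. WT mice carried Nkx2.1-Cre and Tcf4 cKO mice were Tcf4 f/f; Nkx2.1-Cre, both with the Ai3 reporter, so the Cre driver and the reporter were shared. H3K27me3, H3K4me1 and H3K27ac were profiled by Cut&Tag and open chromatin by ATAC-seq in 2 libraries per genotype, from 50000 cells each. Tcf4 binding was profiled with anti-Flag Cut&Tag in 2 libraries of 200000 nuclei each, from mice in which Nkx2.1-Cre switches on the tag of a Tcf4-3xHA-3xFlag allele. The sorted cells were a mixture of cell types of 1 lineage, and a change in the share of a cell type cannot be told apart from a change within cells. Peak lists do not show whether Tcf4 was deleted, and the single-cell RNA libraries were not analysed here.

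H3K27me3 is the histone mark placed by Polycomb repressive complex 2, with Ezh2 or Ezh1 as the enzyme. It is known for covering the CpG-rich promoters of developmental regulators that a cell type keeps silent. Wide stretches of the mark are typical of Hox clusters and of other homeobox genes.

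The domains varied in base composition. To set CpG-rich beside CpG-poor sequence, 5 stretches upstream of member start sites and 2 domain centres are shown. They were chosen after the values had been seen. Each is 250 bases of GRCm38.p6, 5′ to 3′, with each CG dinucleotide in capitals. The first 5 end at the RefSeq start site of a homeobox gene (Barx1, Emx1, Gbx2), of the T-box gene Tbr1 and of Tectb, which encodes a protein of the inner ear tectorial membrane. The sixth is the centre of an intronic domain of Nedd9 that had no H3K27me3 peak in Tcf4 cKO. The seventh is the centre of an intergenic, repeat-rich domain near Apba2.
Barx1, chr13:48662786-48663035, plus strand: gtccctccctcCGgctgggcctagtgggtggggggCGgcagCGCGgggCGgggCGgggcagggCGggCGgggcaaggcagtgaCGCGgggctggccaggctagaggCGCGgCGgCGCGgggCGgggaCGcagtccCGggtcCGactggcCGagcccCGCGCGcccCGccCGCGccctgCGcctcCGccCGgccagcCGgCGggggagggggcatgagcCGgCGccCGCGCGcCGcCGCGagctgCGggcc
Emx1, chr6:85187681-85187930, plus strand: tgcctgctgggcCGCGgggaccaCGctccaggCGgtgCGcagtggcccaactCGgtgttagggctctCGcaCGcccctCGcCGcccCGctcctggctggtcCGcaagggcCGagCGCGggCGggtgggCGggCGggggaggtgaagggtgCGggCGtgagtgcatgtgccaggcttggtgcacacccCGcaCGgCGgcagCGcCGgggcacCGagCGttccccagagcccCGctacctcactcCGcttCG
Gbx2, chr1:89931177-89931426, minus strand: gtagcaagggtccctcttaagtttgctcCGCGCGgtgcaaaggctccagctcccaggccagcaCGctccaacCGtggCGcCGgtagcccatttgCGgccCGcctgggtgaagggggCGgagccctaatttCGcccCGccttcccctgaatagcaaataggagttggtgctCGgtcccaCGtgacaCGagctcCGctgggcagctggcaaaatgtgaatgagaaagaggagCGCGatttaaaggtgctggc
Tbr1, chr2:61804203-61804452, plus strand: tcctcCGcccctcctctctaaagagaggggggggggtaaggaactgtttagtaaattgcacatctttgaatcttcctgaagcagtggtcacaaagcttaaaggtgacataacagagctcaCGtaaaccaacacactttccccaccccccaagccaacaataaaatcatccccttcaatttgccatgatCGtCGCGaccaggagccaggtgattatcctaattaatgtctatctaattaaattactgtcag
Tectb, chr19:55180476-55180725, plus strand: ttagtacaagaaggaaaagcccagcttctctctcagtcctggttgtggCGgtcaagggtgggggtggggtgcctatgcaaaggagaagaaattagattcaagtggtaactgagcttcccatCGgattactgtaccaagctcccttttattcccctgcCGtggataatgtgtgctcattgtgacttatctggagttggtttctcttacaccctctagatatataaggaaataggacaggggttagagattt
Nedd9 intron, chr13:41342263-41342512, plus strand: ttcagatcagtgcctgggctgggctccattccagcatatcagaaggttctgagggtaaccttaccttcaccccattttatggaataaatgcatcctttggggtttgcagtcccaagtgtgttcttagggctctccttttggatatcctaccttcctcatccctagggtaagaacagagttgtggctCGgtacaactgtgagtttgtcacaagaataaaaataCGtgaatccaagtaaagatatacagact
near Apba2, chr7:64480411-64480660, plus strand: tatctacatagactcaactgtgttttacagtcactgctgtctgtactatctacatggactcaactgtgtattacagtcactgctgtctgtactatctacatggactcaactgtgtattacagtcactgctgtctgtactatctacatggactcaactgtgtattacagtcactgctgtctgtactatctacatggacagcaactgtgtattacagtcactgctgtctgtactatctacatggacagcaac

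These windows held 40 CG dinucleotides at Barx1, 30 at Emx1, 18 at Gbx2, 5 at Tbr1, 3 at Tectb, 2 in the Nedd9 intron and 0 near Apba2, where the same short unit was repeated. Of the 144 genes with a start site in a wide domain, 101 were matched to the promoter table. Their upstream windows held a median of 14 CG dinucleotides (interquartile range 9 to 22), against 6 (2 to 16) over 27025 genes of the table. The table holds more genes than the 21911 protein-coding genes counted below, so the sets may also differ in gene type.

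A protein-coding start site lay in 129 of the 366 domains (35.2%), from 144 of 21911 genes, so that 0.657% of all protein-coding genes had a start site in a wide domain. A further 36.6% of the domains were intergenic, 53 (14.5%) were intronic and 50 (13.7%) overlapped an exon without a start site. Domains without a start site lay at a median distance of 28227 bp from the nearest one, and 87 of these 237 were more than 50 kb away. Auts2, Cdhr3, Prdm16 and Tenm4 each held 3 such domains in their gene bodies.

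Several families of developmental transcription factors had start sites in the domains. Among homeobox genes outside the Hox clusters, 31 of 156 (19.9%) had a start site in a wide domain and a further 65 (41.7%) in a narrower reproducible region, where the background over all genes was 13.4%. They included Alx4, Barx1, Dbx1, Gbx2, Isl2, Lhx3 and Nkx6-1. Of 39 Hox cluster genes, 6 lay in wide domains (Hoxa10, Hoxa11, Hoxa13, Hoxb2, Hoxc4 and Hoxd3) and 22 in narrower regions. Of 65 bHLH genes, 11 were in wide domains, among them Sim1, Sim2, Neurog1, Hand1 and Twist1. T-box genes contributed 3 of 16 (T, Tbr1 and Eomes), forkhead genes 3 of 44 (Foxb2, Foxd3 and Foxl2), Wnt ligands 2 of 19 and BMP and GDF ligands 2 of 21.

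Other families had start sites in narrower regions only. At the share of 0.657% over all genes, each of these lists except the olfactory receptor genes would hold about 0 or 1 gene. Nothing is read from the counts of 0 in those lists. None of 19 Sox, 6 Gata, 11 Zic and Gli, 22 FGF, 3 hedgehog and 47 nuclear receptor genes had a start site in a wide domain, whereas 5, 5, 8, 10, 2 and 12 of them, respectively, had it in a narrower region. None of 82 ribosomal protein, 30 Polycomb subunit and 1092 olfactory receptor genes lay in a wide domain, and 9, 5 and 1 lay in a narrower one. The large olfactory receptor list was thus below the background in both classes, with 0.0916% in narrower regions against 13.4% over all genes.

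By position in the embryo, 6 of 20 dorsal and projection neuron genes had a start site in a wide domain (Emx1, Neurog1, Tbr1, Eomes, Fezf2 and Lhx2). The corresponding numbers were 3 of 26 for ventral and interneuron genes (Lhx6, Lhx8 and Dlx1), 4 of 25 for midbrain, hindbrain and spinal cord patterning genes (Gbx2, Pax3, Pax5 and Dbx1) and 8 of 24 for mesoderm and endoderm genes, which included T, Pdx1, Nkx2-5 and Wt1. Of 19 oligodendrocyte-lineage genes 1 lay in a wide domain (Nkx6-2), and of 20 astrocyte-lineage, 10 microglia and 10 endothelial genes none did, counts too small to set apart from the 0.657% over all genes. As a check of the sorted cells, H3K27ac peaks of both WT libraries lay within 1000 bp of a start site for 14 of 20 astrocyte, 6 of 19 oligodendrocyte, 1 of 10 microglia, 3 of 10 endothelial, 10 of 26 ventral and interneuron and 3 of 20 dorsal and projection neuron genes, against 53.0% of all protein-coding genes. Of these lists only the astrocyte genes, at 70%, lay above the share of all genes, so the check does not settle which cell types were sorted. No reproducible H3K27me3 region lay within 5000 bp of Olig2, Myrf or Sox10. Nfix overlapped or neighboured 3 regions, the widest a domain of 6265 bp, without its start site in any, and together they were covered to 88.2% and 99.4% in WT and to 65.1% and 74.7% in Tcf4 cKO. Such regions were chosen by their WT peaks. All reproducible regions were covered to 82.9% and 85.9% in WT and to 66.2% and 63.9% in Tcf4 cKO.

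Several of the widest domains were repeat-rich. The widest, 86199 bp on chromosome 8, held 51 annotated rRNA gene start sites, and the next, 38218 bp on chromosome 9, held a group of predicted genes such as Gm10715. In all, 10 domains were at least 50% repeat-masked and are called repeat-rich. Their H3K27me3 coverage was 96.0% ± 5.22 over the 2 WT libraries and 94.2% ± 1.07 over the 2 Tcf4 cKO libraries (mean ± SD). One of them, near H60c, had 47.0% of its sequence under Tcf4 peaks of both anti-Flag libraries. A further domain at Gm10800 and Gm10801, with 48.9% repeat-masked sequence, had 50.4% under ATAC-seq, 38.6% under H3K27ac and 46.1% under Tcf4 peaks. An intergenic domain near Esp38, which held the non-coding genes AY036118 and Gm42418 and only 4.55% repeat-masked sequence, had the largest Tcf4 share of all domains at 79.9%, with 92.2% under ATAC-seq and 32.0% under H3K27ac peaks of both WT libraries. Peaks of assays that mark unlike chromatin thus coincided in these domains, and the part of read mapping in this was not tested.

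Outside the repeat-rich domains, the widest measured 17877 bp and held the predicted genes Gm21188 and Gm36079. It was followed by domains at Dmrt2 (12577 bp), Osr1 (12233 bp) and Barx1 (11910 bp), which encode transcription factors of somite, kidney and tooth development, next to Sox1 (11260 bp), Foxf1 (11078 bp) and Cbx8 (10758 bp), and at Hoxc4 (10164 bp), a regulator of axial identity. The 3 regions just inside the width limit measured 5001, 5011 and 5016 bp, near Fbxo8, B230104I21Rik and Zic4. The 3 just outside measured 4997, 4991 and 4989 bp, near Rbfox1, at Fgf8 and near Topaz1. Their WT coverage ranged from 67.5% to 100% inside and from 25.8% to 100% outside.

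Fewer wide peaks were called in Tcf4 cKO, and the difference lay mainly in CpG-poor sequence. Single peaks of 5000 bp or more numbered 200 and 256 in the WT libraries and 147 and 154 in the Tcf4 cKO libraries. The groups did not overlap, with means of 228 ± 39.6 and 150.5 ± 4.95 (SD, n = 2). The two-sided exact permutation test gave p = 0.333, the smallest p that 2 against 2 libraries allow. The libraries did not differ in this way in total extent, since all H3K27me3 peaks covered 21.1 and 23.3 Mb in WT and 24.9 and 21.4 Mb in Tcf4 cKO. The median fold enrichment of the wide peaks was 1.62 and 1.56 in WT and 1.64 and 1.59 in Tcf4 cKO, below the medians of 2.45 to 2.52 over all peaks.

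The CpG ratio is the observed number of CG dinucleotides over that expected from the C and G content, and its classes were set after the values had been seen. Of the wide peaks outside repeats, those with a ratio under 0.3 numbered 75 and 103 in WT and 28 and 35 in Tcf4 cKO, or 0.354 times the WT mean. Those with a ratio of 0.4 or more numbered 98 and 105 in WT and 91 and 86 in Tcf4 cKO, or 0.872 times the WT mean. Neither of these pairs of groups overlapped, with an exact permutation p = 0.333 for each. Wide peaks with a ratio from 0.3 to 0.4 numbered 18 and 38 in WT and 17 and 24 in Tcf4 cKO. In that class the groups overlapped, with an exact permutation p = 0.667. Repeat-rich peaks numbered 9 and 10 in WT and 11 and 9 in Tcf4 cKO.

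**Figure D1:**
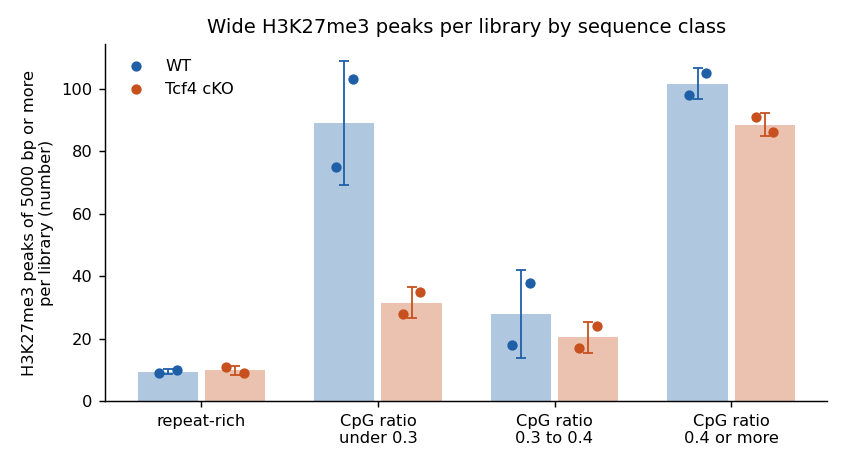
Number of H3K27me3 peaks of 5000 bp or more in each library, by CpG observed over expected ratio, with peaks of 50% or more repeat-masked sequence set apart. Bars are means, error bars SD and points the 2 libraries of WT and of Tcf4 cKO. The class under 0.3 holds 75 and 103 WT peaks and 28 and 35 Tcf4 cKO peaks.

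Across the 366 domains, H3K27me3 peaks covered 84.9% and 90.1% of the sequence in the WT libraries and 68.1% and 71.1% in the Tcf4 cKO libraries. Coverage was 69.6% ± 2.13 in Tcf4 cKO (SD, n = 2). A peak was still present in 363 and 364 of the domains, with 1.57 and 1.42 peaks per domain in Tcf4 cKO against 1.27 and 1.14 in WT. Each Tcf4 cKO library lay below each WT library in 188 domains (51.4%), where the background over all reproducible regions was 40.7%, and above them in 7 (1.91%, background 4.47%). The choice from WT alone lowers every other library and favours unbroken peaks in WT, so nothing is read from these directions or from the peaks per domain. In the mirror choice, 255 domains chosen the same way from Tcf4 cKO were covered to 81.3% and 83.0% in the WT libraries, against 87.2% and 86.5% in Tcf4 cKO. There, both WT libraries lay below both Tcf4 cKO libraries in 66 domains (25.9%), with a background of 41.2%, and above them in 16 (6.27%, background 4.81%). Peaks per domain in the mirror choice were 1.20 and 1.15 in WT and 1.33 and 1.17 in Tcf4 cKO. Of the WT domains, 172 (47.0%) overlapped such a Tcf4 cKO domain, and 174 (68.2%) of the Tcf4 cKO domains overlapped a WT domain.

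Wide peaks chosen from 1 library were measured in the other 3, which the choice had not used. CpG-poor wide peaks of WT replicate 1 were covered to 82.5% in WT replicate 2, and to 60.1% and 62.0% in the Tcf4 cKO libraries. Those of WT replicate 2 were covered to 77.4% in WT replicate 1, and to 58.0% and 62.6% in Tcf4 cKO. In the mirror choice, CpG-poor wide peaks of Tcf4 cKO replicate 1 were covered to 81.5% and 80.3% in WT and to 74.9% in Tcf4 cKO replicate 2. Those of Tcf4 cKO replicate 2 were covered to 81.9% and 87.6% in WT and to 75.8% in Tcf4 cKO replicate 1. The few CpG-poor wide peaks of Tcf4 cKO were thus covered at least as much in WT as in the other Tcf4 cKO library, whereas those of WT were covered less in Tcf4 cKO. For CpG-rich peaks the gap was smaller, with 88.7% in the other WT library against 83.3% and 84.7% in Tcf4 cKO for WT replicate 1, and 86.2% against 80.0% and 81.3% for WT replicate 2. In the mirror choice, CpG-rich peaks of Tcf4 cKO replicate 1 were covered to 82.4% and 83.8% in WT and to 82.4% in the other Tcf4 cKO library, and those of Tcf4 cKO replicate 2 to 88.8% and 89.0% in WT and to 85.6%. Peaks of Tcf4 cKO were thus covered about as much or more in WT in both CpG classes. These gaps are given without a test.

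**Figure D2:**
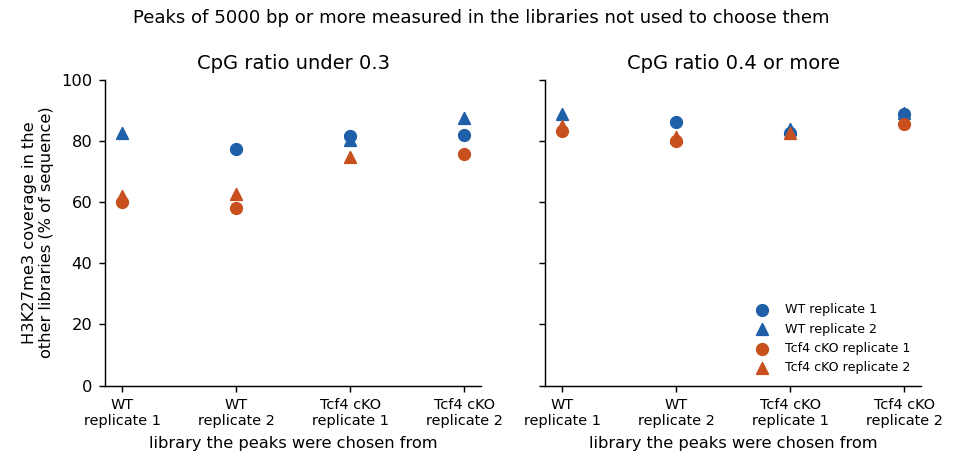
H3K27me3 coverage, as percent of summed sequence, of peaks of 5000 bp or more chosen from the library on the horizontal axis and measured in the 3 other libraries, for CpG-poor (left) and CpG-rich peaks (right), repeat-rich peaks left out. CpG-poor peaks of either WT library reach 77.4% to 82.5% in the other WT library and 58.0% to 62.6% in Tcf4 cKO.

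Within the 366 domains, the 159 with a CpG ratio under 0.3 and no repeat-rich sequence were covered to 53.2% and 57.2% in the Tcf4 cKO libraries, and the 146 with 0.4 or more to 77.3% and 78.6%. WT coverage was 81.3% and 87.4% in the first class and 88.1% and 90.1% in the second. Start sites followed the same split, being present in 13 of 165 domains under 0.3 (7.88%) and in 103 of 148 with 0.4 or more (69.6%), repeat-rich domains included. At a ratio of 0.4 or more, coverage in Tcf4 cKO was 79.1% ± 0.983 with a start site (102 domains) and 75.1% ± 0.734 without one (44 domains). At a ratio under 0.3, the 13 domains with a start site were covered to 50.7% and 57.2%. The split by CpG was not particular to wide domains, since narrower regions under 0.3 were covered to 57.0% and 53.7% in Tcf4 cKO and those of 0.4 or more to 76.1% and 73.7%.

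**Figure D3:**
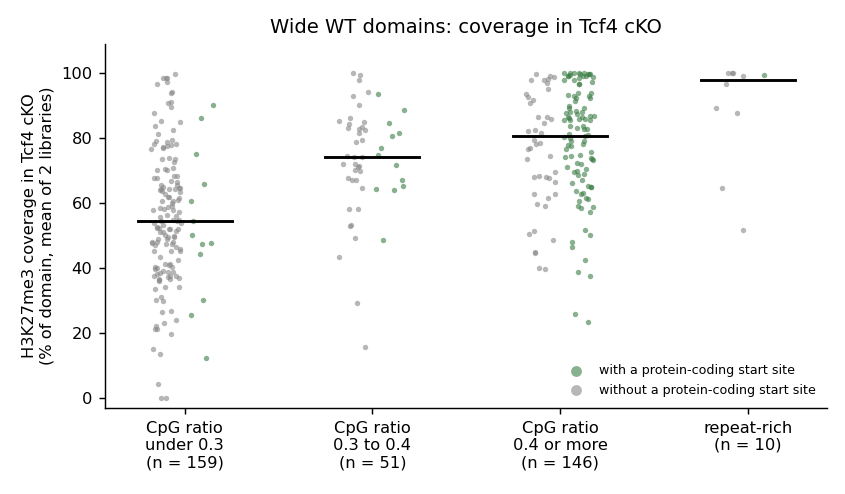
H3K27me3 coverage of each wide WT domain in Tcf4 cKO, as the mean percent of the domain under peaks in the 2 libraries, by CpG ratio. Points are domains, green with and grey without a protein-coding start site, and black lines are medians, which rise from 54.4% under 0.3 to 80.8% at 0.4 or more.

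Mean coverage in Tcf4 cKO was under 50% in 82 domains (22.4%), a smaller share than the background of 35.02% over all reproducible regions. Of these 82 domains, 68 were without a start site, beside 237 of all 366 domains. Only 2 had no H3K27me3 peak in either Tcf4 cKO library (0.546%, against a background of 11.5% over all reproducible regions, most of which were far narrower), and both were intronic. The domain in Nedd9, a scaffold protein of cell adhesion, at chr13:41339766-41345010, was covered to 100% and 25.9% in the WT libraries, and so rested largely on WT replicate 1. The domain in Pard3, a cell polarity gene, at chr8:127247498-127252655, was covered to 98.1% and 84.5% in WT.

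Among domains with a start site, the lowest coverage was at Tead1, a transcription factor of the Hippo pathway, with 78.5% and 52.2% in WT and 12.6% and 12.2% in Tcf4 cKO. At Lgr4, a receptor for R-spondins, WT coverage was 65.6% and 100%, and Tcf4 cKO coverage 15.8% and 30.8%. Tectb had 71.5% and 97.1% in WT and 25.2% and 26.0% in Tcf4 cKO. Mid2, C1qtnf1 and Gbx2 followed, and at Gbx2, a regulator of hindbrain patterning, coverage was 64.6% and 94.9% in WT and 29.6% and 45.9% in Tcf4 cKO. These genes were picked for low coverage in Tcf4 cKO, so their direction was fixed by the choice.

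Homeobox genes were close to all genes with a start site in a wide domain. Their median Tcf4 cKO coverage was 83.2% (31 genes), beside 81.1% for all 144 genes, and both Tcf4 cKO libraries were below both WT libraries for 13 of 31, beside 63 of 144. Nkx6-1 had 97.6% and 99.9% in WT and 100% and 99.9% in Tcf4 cKO, and Lhx6, a regulator of cortical interneurons, had 91.1% and 100% in WT and 100% and 98.3% in Tcf4 cKO. Groups did not separate at Emx1 (99.0% and 66.5% in WT, 72.4% and 68.5% in Tcf4 cKO) or Tbr1 (100% and 71.2% in WT, 71.4% and 95.9% in Tcf4 cKO), both regulators of dorsal neocortex. At Osr1 coverage was 88.1% and 98.5% in WT and 66.1% and 64.3% in Tcf4 cKO, and at Alx4 it was 83.7% and 83.6% in WT and 53.0% and 64.6% in Tcf4 cKO.

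**Figure D4:**
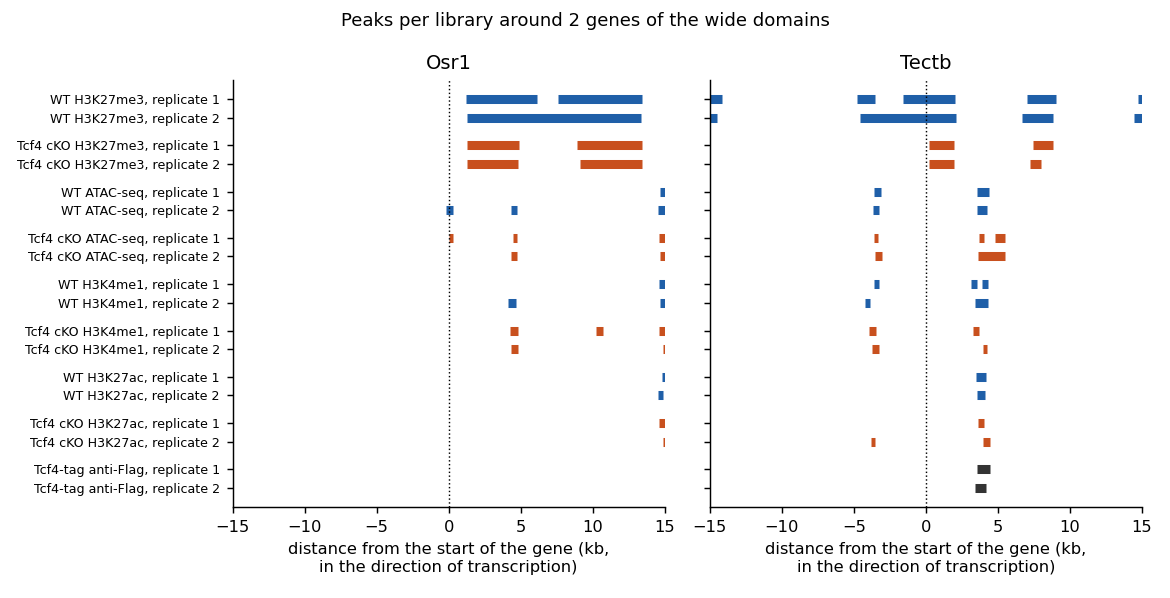
Peaks of each library within 15 kb of the annotated start of Osr1 and Tectb, plotted by distance from that start in the direction of transcription. Each line is 1 library, blue WT, orange Tcf4 cKO and black Tcf4-tag. At Osr1 the 2 Tcf4 cKO libraries share a gap where WT replicate 1 has a shorter one and WT replicate 2 has none, and the domain lies downstream of the annotated start, so its start site is that of another transcript.

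In the reverse direction, domains chosen from Tcf4 cKO with the lowest WT coverage included Nr4a3 (8.94% and 0% in WT, 100% and 13.1% in Tcf4 cKO), Dusp9 (0% and 19.2% in WT, 73.1% and 85.0% in Tcf4 cKO) and Prdm13 (42.2% and 43.9% in WT, 70.7% and 74.9% in Tcf4 cKO). The Nr4a3 domain rested on Tcf4 cKO replicate 1.

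By share of sequence, active marks were sparser in the domains than in narrower H3K27me3 regions. Of the 366 domains, 41 held H3K27ac peaks from each of the WT libraries (11.2%, 95% Wilson interval 8.37 to 14.8%, which covers counting error only), against 24.4% of the 10240 narrower regions, although the domains are longer. Such peaks covered 0.892% of domain sequence, 7.54% of narrower-region sequence and 0.421% of the genome. H3K4me1 peaks of both WT libraries overlapped 151 domains (41.3%) and ATAC-seq peaks 213 (58.2%), against 35.5% and 47.5% of narrower regions. They covered 2.94% and 6.55% of domain sequence, against 9.05% and 17.0% of narrower-region sequence. By share of sequence, the domains were therefore less covered by each of these assays than narrower regions. They were more covered than the genome average of 0.421% for H3K27ac, 0.556% for H3K4me1 and 1.20% for ATAC-seq. Counted as regions with a peak, the domains were lower for H3K27ac but higher for H3K4me1 and ATAC-seq. The part of width in this was not tested.

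Some start-site domains nevertheless held sizeable H3K27ac peaks. At Atrnl1, 23.7% of the domain was under H3K27ac peaks of both WT libraries and 12.8% of both Tcf4 cKO libraries. The values were 15.7% and 6.60% at Tmtc4, 12.9% and 8.92% at Map3k9, 12.6% and 10.4% at Nkain2 and 9.36% and 13.0% at Lgr4. Outside Gm10800 and the repeat-rich domains, the largest gains in Tcf4 cKO at a start site were from 0% to 6.06% at Pltp, a phospholipid transfer protein, and from 0% to 4.53% at Lhx2, a cortical selector gene. These shares count only bases under peaks of both libraries. The Pltp and Lhx2 domains did hold an H3K27ac peak in at least 1 WT library.

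H3K4me1 covered more of the domains in Tcf4 cKO, at 7.42% and 6.91% against 4.67% and 5.79% in WT (exact permutation p = 0.333, groups not overlapping). Narrower regions went the same way, at 18.6% and 18.1% against 12.4% and 15.8%, and the Tcf4 cKO H3K4me1 lists were also longer, with 72788 and 65047 peaks against 51507 and 59523. The part of list length in this was not tested. ATAC-seq covered 7.48% and 6.84% in Tcf4 cKO and 7.84% and 9.30% in WT (exact permutation p = 0.333). H3K27ac covered 1.40% and 1.18% in Tcf4 cKO and 1.74% and 1.30% in WT (exact permutation p = 0.667).

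An ATAC-seq peak was present in the 2 WT libraries and absent from the 2 Tcf4 cKO libraries in 11 domains (3.01%, background 1.18% over all reproducible regions), at Neurog3, Wnt3, Lhx3, Pdx1 and Hoxa13 among others. The reverse held in 3 domains (0.820%, background 0.688%). An H3K4me1 peak was found in the 2 Tcf4 cKO libraries and in no WT library in 16 domains (4.37%, background 3.54%), such as Wnt3a, Nkx2-5, Tfap2c and Foxd3, and the reverse in 2 (0.546%, background 0.585%). For H3K27ac, 8 domains had it in WT only (2.19%, background 1.83%), including Tal1, Ncs1 and Foxl2, and 1 in Tcf4 cKO only, at Tnfaip2 (0.273%, background 0.405%). Longer regions have more room for a peak, so shares above the background cannot be told apart from width.

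Few of the 32120 consensus ATAC-seq regions lay in the domains, 71 with and 63 without a start site in the domain. By the authors' mean log2 normalized reads, which carry no replicate error, the median difference of Tcf4 cKO minus WT was -0.04 in the domains and -0.10 over all regions. Within the domains, it was -0.02 for regions in domains with a start site and -0.17 for regions in domains without one. A difference of 1 or more on the log2 scale was found for 2 regions of the domains in each direction (1.49% each), against 4.18% lower and 2.87% higher over all regions. Consensus regions in narrower H3K27me3 regions were also below the shares over all regions, with 1.32% lower and 0.70% higher.

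**Figure D5:**
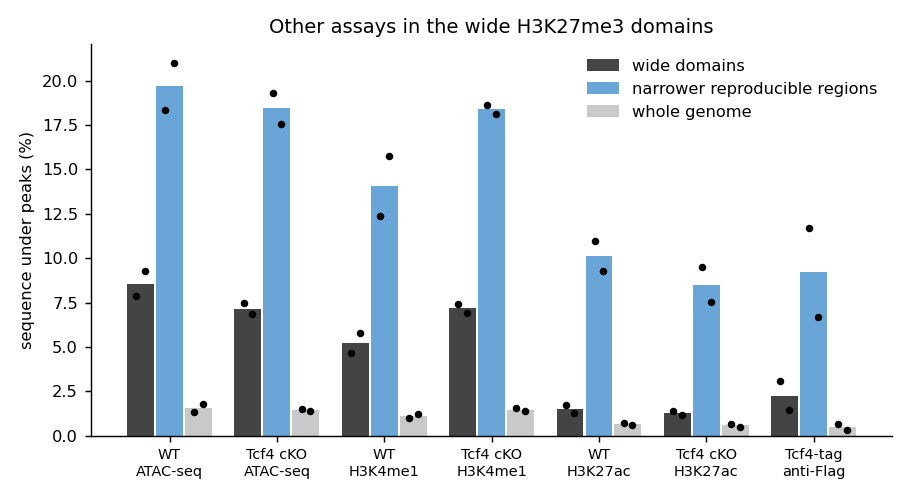
Percent of sequence under peaks of each assay in the wide domains, the narrower reproducible regions and the whole genome. Bars are means of 2 libraries and points the libraries. Each assay covers less of the wide domains than of the narrower regions.

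Tcf4, a bHLH factor that binds E-boxes, had peaks of both anti-Flag libraries in 41 domains (11.2%, 95% Wilson interval 8.37 to 14.8%), against 20.1% of narrower regions. They covered 1.31% of domain sequence, 6.21% of narrower regions and 0.279% of the genome. The anti-Flag libraries differed, with a peak in 103 domains for replicate 1 and 44 for replicate 2. Outside Gm10800 and the repeat-rich domains, the largest shares at a start site were at Atrnl1 (18.6%), Tmtc4 (10.2%), Map3k9 (9.90%) and Gsc (9.10%), and Atrnl1, Tmtc4 and Map3k9 were also among the domains with most H3K27ac. Outside repeat-rich domains, 40 Tcf4 summits lay in the domains. In windows of 151 bp around them, the palindromic E-box CAGCTG was present in 7 (17.5%, 95% Wilson interval 8.75 to 31.9%) and CANNTG, which includes it, in 23 (57.5%, 42.2 to 71.5%). Over all 14185 summits the shares were 14.4% and 46.1%, which lay within those intervals. In narrower regions (2089 summits) the shares were 10.6% and 38.01%, and the CANNTG share lay below its interval. With repeat-rich domains included, 59 summits lay in the domains. CANNTG was then present in 49.2% (36.8 to 61.6%), an interval that held the share of narrower regions.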

How the data were processed

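ATAC-seq, histone Cut&Tag and anti-Flag Cut&Tag libraries were deposited as 1 MACS2 peak list each. Per the study's methods the authors trimmed reads with Trim Galore, aligned them to mm10 with Bowtie2, removed duplicates with SAMtools, kept uniquely mapped reads and called peaks per library, broad ones for H3K27me3. Unique mapping limits what repeats can show. The deposited peak columns hold fold enrichment and −log10 p and q, and the smallest −log10 q in the broad lists was 1.0012. The deposited ATAC-seq consensus table holds the authors' mean log2 normalized reads per genotype; its columns of fold changes, p-values and FDR from the authors' own comparison, and a table of footprint scores, were not used. Read depth is not in peak lists, so peak number and covered sequence were used in its place.

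Regions were merged and covered bases counted with Python 3.11.15, numpy 2.4.6, pandas 2.3.3, pysam 0.24.0 and scipy 1.17.1, in steps tested on simulated peak lists. Genes came from GENCODE M21, sequence, repeat masking and CpG ratios from RefSeq GRCm38.p6. A start site is that of any protein-coding transcript. Libraries were grouped by their labels, 2 per group, and compared with two-sided exact permutation tests; nothing states that they came from separate animals, so p-values measure the spread between libraries. Replicate numbers were not treated as pairs in the main tests. Over 30048 merged regions, differences between replicates 1 and 2 of WT and of Tcf4 cKO correlated at 0.0271. A single correlation cannot exclude that libraries of the same number shared a batch. The members, gene lists and tests were chosen with earlier results of these data known. Genes were named by rank of width, of coverage in Tcf4 cKO, of Tcf4 and of H3K27ac share, or as list members, and the CpG and repeat classes and the printed sequences after the values were seen. Alternatives changed the minimum width, joining, q limit, overlap and libraries used.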

Additional observations from a re-analysis of the deposited data

How the results depend on the processing

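Depth is unknown, and 2 libraries a group cannot pass a threshold, so these lists show direction and size only. Why values moved under the alternatives below was not tested. The difference in wide peaks, -77.5, was -208 at 3000 bp, -2.5 at 10000 bp and -53 with −log10 q of at least 5, and ran from -105.5 to -49.5 with a library left out. With the replicate number as a block it stayed -77.5, with an exact sign-flip p = 0.5, the smallest 2 pairs allow.

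At a minimum width of 3000 bp there were 2053 domains (8.73 Mb) and 1956 chosen from Tcf4 cKO, whose WT coverage was 75.04%. Of the former, 34 had no Tcf4 cKO peak, 52.5% held ATAC-seq peaks, and they took in 44.9% of homeobox genes. At 10000 bp there were 12 (0.271 Mb) and 9, with coverage in the other genotype of 88.6% and 92.5%. Of those 12, 0 lacked a Tcf4 cKO peak, 50% held a start site, 25% held H3K27ac, 58.3% H3K4me1 and 25% Tcf4 peaks, and they took in 0.641% of homeobox genes. With −log10 q of at least 5 there were 143 (1.01 Mb) and 66, with coverage of 49.7% and 87.1%. Of the 143, 38 had no Tcf4 cKO peak, 53.8% held a start site, 54.5% H3K4me1 and 76.9% ATAC-seq peaks, and they took in 12.8% of homeobox genes. Over bases shared by both libraries there were 127 (0.892 Mb) and 73, with coverage of 85.7% and 94.8%. Of the 127, 0 lacked a Tcf4 cKO peak, 40.9% held a start site and 7.87% H3K27ac, and they took in 9.62% of homeobox genes.

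With peaks over at least 10% of the domain, the shares were 3.01% for H3K27ac, 12.02% for H3K4me1, 30.6% for ATAC-seq and 2.19% for Tcf4. With narrow peaks of −log10 q of at least 5 they were 3.01%, 7.38%, 47.3% and 6.83%. With gene-model starts only, 29.0% of domains held a start site. In splits chosen after seeing the data, coverage in Tcf4 cKO was 67.2% without repeat-rich domains, 76.9% with a start site and 65.6% without one, and WT coverage of Tcf4 cKO domains was 80.2% without repeat-rich ones.

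With 1 library left out, there were 200 to 256 domains (1.35 to 1.73 Mb), 68.1 to 78.1% covered in Tcf4 cKO, and 0 to 3 without a Tcf4 cKO peak. From Tcf4 cKO there were 147 to 255, with 81.3 to 89.3% covered in WT. Start sites lay in 32.4 to 40.5% of domains, and 12.2 to 16.0% of homeobox genes in domains. Shares ran from 9 to 19.1% for H3K27ac, 40.6 to 55.2% for H3K4me1, 55.9 to 68.3% for ATAC-seq and 9 to 28.1% for Tcf4. The Nedd9 and Pard3 domains were not chosen from WT replicate 2 alone.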
